A study of Mus musculus with 4 samples.

Results

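The 31 genes described here encode the steps by which a cell takes up glucose, splits it to pyruvate, exports lactate or passes pyruvate to the mitochondrion, together with 3 enzymes of the pentose phosphate pathway and the transcription factor HIF1A. They were taken by gene symbol, and all 31 were found, each on 1 row, among the 64253 genes in the files. HIF1A is no enzyme of either pathway, and PDK1, PDHA1 and PDHB act after glycolysis, at the entry of pyruvate into the mitochondrion.

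The RNA came from CD11a-high CD8+ T cells of peripheral blood, a fraction that holds antigen-experienced cells, taken from people on PD-1 blockade, in which an antibody to an inhibitory T cell receptor was dosed every 3 weeks, with 4 doses to a cycle. The 4 libraries form 4 groups of 1, by outcome (responder, non-responder) and by time (before, after therapy). The group labels give this before and after placement, whereas a treatment label says that all blood was taken after a cycle, and the group labels were followed. The labels do not say whether a before and an after library share a patient, and both sample names of the earlier time hold a tag that reads as PD-1 positive, so patient, cohort, gate and time cannot be told apart. The organism field names mouse, but the files hold human genes on the build hg38 and were read as human.

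Glycolysis turns glucose into pyruvate in the cytosol. Phosphofructokinase is its main control point and is switched on by fructose 2,6-bisphosphate, which the PFKFB enzymes make and remove. The pentose phosphate pathway branches off after hexokinase and yields NADPH and ribose for biosynthesis. Stimulated CD8 T cells are known to increase glucose uptake and lactate production, and HIF1A is a known transcriptional activator of many glycolytic genes.

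The libraries held 65500644 to 129773591 counts, and levels are TMM-normalised CPM, that is, counts scaled to library size. Wherever a pair of values is given for a time, the responder comes first. Sort and T cell markers summed to 3219 to 4564 CPM, with CD8A at 865 to 1561 and CD3E at 556 to 751 CPM, while PDCD1, which encodes PD-1, stood at 31.4 and 4.98 CPM before and 28.7 and 7.88 CPM after therapy. ITGAL, which encodes CD11a, stood at 516 to 765 CPM. The 17 monocyte and neutrophil markers summed to 222 and 241 CPM before therapy, but to 2033 and 9627 CPM after it. All 17 of these markers had a count in each library. The 11 epithelial and matrix markers summed to 328 CPM in the responder library before therapy and to between 5.77 and 19.7 CPM in the other 3, where EPCAM had no count. The 16 immediate early genes, such as FOS, respond quickly to stimulation and to cell handling, and they summed to 2935 and 9263 CPM before and 4828 and 13491 CPM after therapy. Over the libraries, NK cell markers summed to 393 to 483 CPM, B cell and plasma cell markers to 60.6 to 113 CPM, platelet markers to 25.6 to 212 CPM, dendritic cell markers to 15.8 to 178 CPM, red cell markers to 2.85 to 22.0 CPM and proliferation genes to 79.4 to 208 CPM. In such bulk RNA, fewer cells of a type and less RNA per cell cannot be told apart. With 1 library per group, a ratio of 1 library to another has no replicate check and no p-value, and its 95% interval covers counting error alone.

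Together the 31 genes made up 0.846% and 0.614% of all counts before and 0.672% and 0.697% after therapy. Per kilobase of the gene length that the files give, GAPDH came first and ENO1 second among the 31 in each library. GAPDH stood between 425 and 646 CPM per kb, and ENO1 between 138 and 227 CPM per kb. TPI1, LDHB, ALDOA and LDHA took the 4 places after these in 3 libraries, at 98.2 to 213 CPM per kb, and in the responder library after therapy PGK1, at 98.9, stood just above ALDOA, at 97.5. SLC16A3, PFKFB2, PFKFB4 and HK2 held the lowest places, all under 2 CPM per kb, except that PFKM was below PFKFB4 in the non-responder library after therapy. The highest and the lowest places were thus held by much the same genes in each library.

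**Figure D1:**
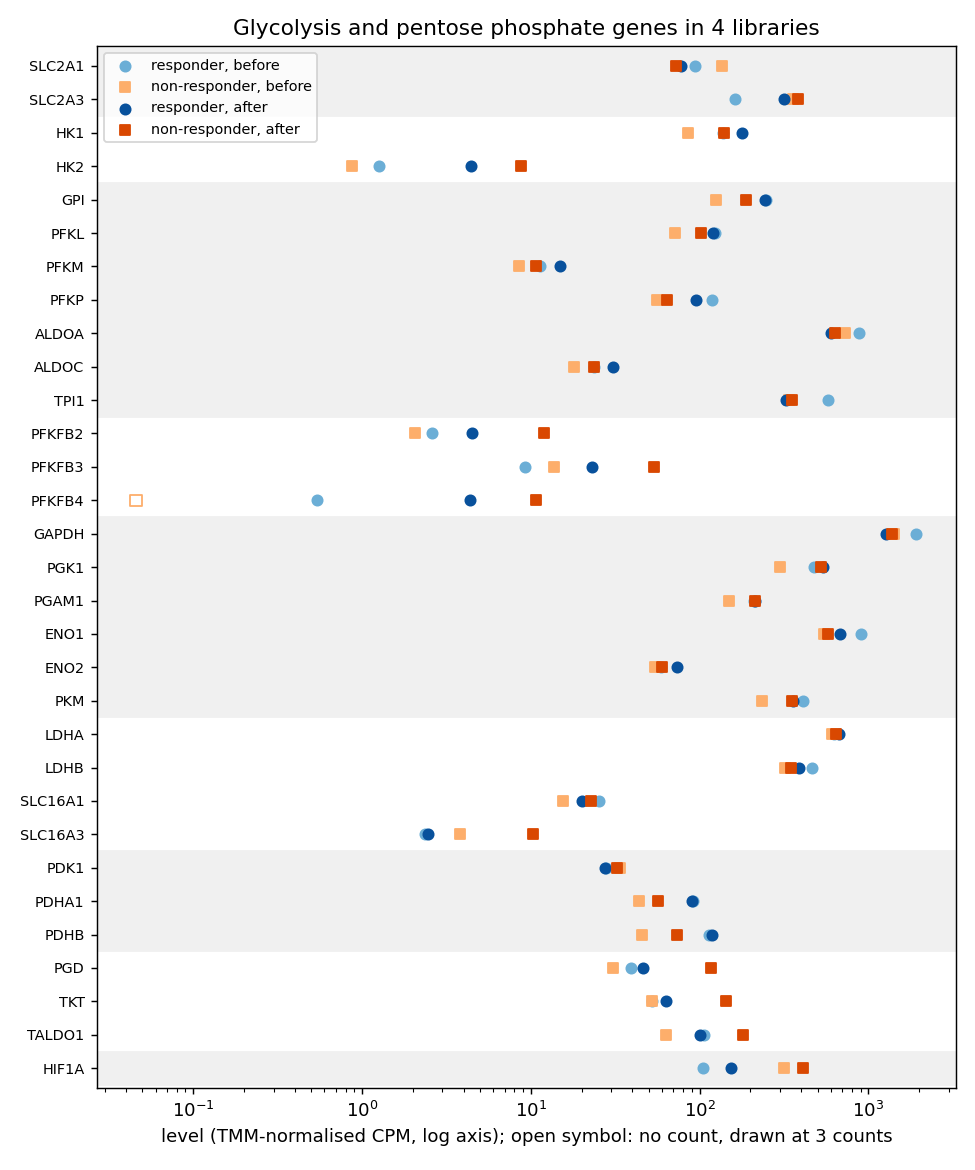
Level of each of the 31 genes in the 4 libraries, as TMM-normalised CPM on a log axis, with genes grouped by pathway step in shaded bands. Circles are responder and squares non-responder libraries, pale before and dark after therapy. LDHA lies between 609.5 and 665 CPM in all 4 libraries, whereas the 2 non-responder squares of HIF1A, at 316 and 408 CPM, lie to the right of both responder circles.

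HIF1A had less RNA in the responder than in the non-responder library, both before and after therapy. HIF1A (ENSG00000100644, chromosome 14: 61695513 to 61748259) encodes the oxygen-regulated subunit of hypoxia-inducible factor. HIF1A stood at 105 and 316 CPM before and at 154 and 408 CPM after therapy. Both responder libraries lay below both non-responder libraries, as for 16.2% of all genes with at least 5 CPM in any library. The log2 ratio of responder to non-responder was -1.60 before therapy (interval -1.63 to -1.56) and -1.41 after therapy (interval -1.43 to -1.38), and no other member was at least 2-fold apart in the same direction at both times. The monocyte and neutrophil sums were 222 and 241 CPM before and 2033 and 9627 CPM after therapy. The immediate early sums were, like HIF1A, lower in each responder library than in its counterpart. The part of either in the result was not tested. In the model over all 4 libraries, with time as a covariate, the response coefficient of HIF1A was -1.50 ± 0.179 (log2 ± SE, edgeR quasi-likelihood test, adjusted p = 0.558), which did not pass.

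The glucose transporters went the same way before therapy. SLC2A3, the high-affinity transporter GLUT3 (chromosome 12: 7919230 to 7936275), stood at 162 and 358 CPM before and at 317 and 382 CPM after therapy. Its log2 ratio was -1.14 before therapy and -0.27 after therapy, so the responder library before therapy stood apart from the other 3. SLC2A1, the widely expressed transporter GLUT1, stood at 94.3 and 135 CPM before and at 77.1 and 72.5 CPM after therapy, with log2 ratios of -0.51 and 0.09. Per kilobase, SLC2A3 made up 54.0% and 64.5% of the summed level of both before and 73.7% and 78.2% after therapy. SLC2A14, a near copy of SLC2A3 with which reads could be exchanged, stood at 4.31% to 10.4% of the CPM of SLC2A3.

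The enzymes of upper glycolysis were higher in the responder library before therapy, 7 of 7 by sign, with a median log2 ratio of 0.76. After therapy 5 of 7 were, with a median of 0.37. Over all genes at 5 CPM, 53.4% were higher before and 55.1% after therapy, with medians of 0.06 and 0.07. Of the 7, only PFKP was at least 2-fold apart before therapy, and none was after it. PFKP, the platelet-type phosphofructokinase (chromosome 10: 3066333 to 3137712), stood at 118 and 56.1 CPM before and at 95.3 and 63.8 CPM after therapy. Its log2 ratio was 1.07 (interval 1.02 to 1.13) before and 0.58 after therapy. Both responder libraries lay above both non-responder libraries for PFKP, as for 22.2% of all genes with at least 5 CPM in any library. GPI, which converts glucose 6-phosphate to fructose 6-phosphate, stood at 246 and 125 CPM before and 244 and 188 CPM after therapy, a log2 ratio of 0.98 and then 0.37. PFKL, the liver-type phosphofructokinase, had log2 ratios of 0.79 and 0.24. PFKM, the muscle type, was much less abundant, at 8.46 to 14.8 CPM, with ratios of 0.42 and 0.46. PFKM overlaps SENP1, which was more abundant in each library, at 19.9 to 27.9 CPM, and reads of overlapping genes may not be told apart. GPI is overlapped by the row RP11-618P17.4, which held 18.2% to 21.0% as many counts as GPI. PFKP made up the largest share of the 3 phosphofructokinase genes per kilobase in each library, between 50.6% and 61.3%.

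ALDOA and TPI1 did not keep that direction after therapy, while ALDOC did. ALDOA, the main aldolase of most tissues, stood at 874 and 728 CPM before and 600.0 and 635 CPM after therapy, with log2 ratios of 0.26 and -0.08. TPI1, which interconverts the 2 triose phosphates, stood at 574 and 339.7 CPM before and at 327 and 353 CPM after therapy, with ratios of 0.76 and -0.11. ALDOC, the aldolase best known from brain, had ratios of 0.40 and 0.37 at levels of 18.0 to 30.8 CPM. ALDOA and TPI1 were highest in the responder library before therapy, as were GPI, PFKL, PFKP, GAPDH, ENO1, PKM, LDHB, SLC16A1 and PDHA1. Epithelial and matrix markers were also highest in that library, and the part of those cells was not tested.

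Of the 2 hexokinase members, HK1, the constitutive form, was far more abundant than HK2. HK3, which is no member, is described with the other glycolytic enzymes. HK1 stood at 138 and 85.9 CPM before and at 179 and 140.3 CPM after therapy. HK2, the inducible form, stood at 1.26 and 0.874 CPM before and 4.40 and 8.75 CPM after therapy. HK2 made up 0.903% and 1.01% of the counts of both genes before therapy and 2.40% and 5.87% after therapy (exact binomial 95% intervals 0.739 to 1.09, 0.764 to 1.30, 2.20 to 2.60 and 5.52 to 6.23). The share was higher in both libraries from after therapy than in both from before, and highest in the non-responder library. The same held for the monocyte and neutrophil sum (222 and 241 CPM before, 2033 and 9627 CPM after therapy). It also held for the dendritic cell sum (15.8 and 21.6 CPM before, 22.1 and 178 CPM after therapy) and the NK cell sum (393 and 415 CPM before, 447 and 483 CPM after therapy). The part of each was not tested.

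The 6 genes of lower glycolysis all had the higher level in the responder of the earlier pair (median log2 ratio 0.58). After therapy 4 of 6 did, and the median was 0.03. The shares over all genes at 5 CPM were 53.4% before and 55.1% after therapy, with medians of 0.06 and 0.07. GAPDH, the glyceraldehyde phosphate dehydrogenase often used as a reference gene, stood at 1925 and 1412 CPM before and at 1266 and 1373 CPM after therapy. Its level differed by 1.52-fold between the highest and the lowest library. ENO1, the widely expressed enolase (chromosome 1: 8861002 to 8879249), stood at 898 and 545 CPM before and 677 and 579 CPM after therapy. Both responder libraries were thus above both non-responder libraries, as for 22.2% of all genes with at least 5 CPM in any library. PKM, the pyruvate kinase of proliferating and muscle cells, stood at 411 and 233 CPM before and 357 and 353 CPM after therapy, a log2 ratio of 0.82 and then 0.02. PGK1, on the X chromosome, and PGAM1 had ratios of 0.67 and 0.49 before therapy and of 0.04 and 0.00 after it. ENO2, the neuronal enolase, stood between 54.2 and 73.1 CPM with ratios of 0.11 and 0.28. GAPDH, ENO1 and PKM were highest in the responder library before therapy, where epithelial and matrix markers were also highest. The part of those cells was not tested.

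LDHA, which makes lactate from pyruvate, was nearly level. LDHA (chromosome 11: 18394388 to 18408425) stood at 629 and 609.5 CPM before and 665 and 646 CPM after therapy, so its highest level was 1.09-fold its lowest. Of 1411 genes with at least 100 CPM in all 4 libraries, a set chosen after the values were seen, 0.709% were as level, and the median gene differed by 1.60-fold. LDHB, the isoform that favours the reverse reaction, stood at 465 and 319 CPM before and 389 and 346 CPM after therapy, with log2 ratios of 0.54 and 0.17. Per kilobase the ratio of LDHA to LDHB was 0.650 and 0.919 before and 0.821 and 0.899 after therapy. The ratio was lower in each responder library than in its non-responder counterpart, with LDHB higher in the responder at both times and LDHA nearly equal.

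The lactate exporters were scarce. SLC16A1, the transporter MCT1, stood at 25.2 and 15.5 CPM before and 20.1 and 22.6 CPM after therapy. SLC16A3, the transporter MCT4 of strongly glycolytic cells, stood at 2.35 and 3.80 CPM before and 2.45 and 10.3 CPM after therapy. Its log2 ratio after therapy was -2.08 (interval -2.26 to -1.90), the largest of either pair by size among members with a count in all 4 libraries. The gene overlaps CSNK1D, which stood at 119.7 to 184 CPM, and reads of overlapping genes may not be told apart in the files. SLC16A3 made up 8.55% and 19.7% of the counts of both exporters before and 10.9% and 31.4% after therapy. Both its level and its share were highest in the library with the highest monocyte and neutrophil sum. That library also had the highest immediate early, dendritic cell, platelet and NK cell sums, and the part of each was not tested.

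**Figure D2:**
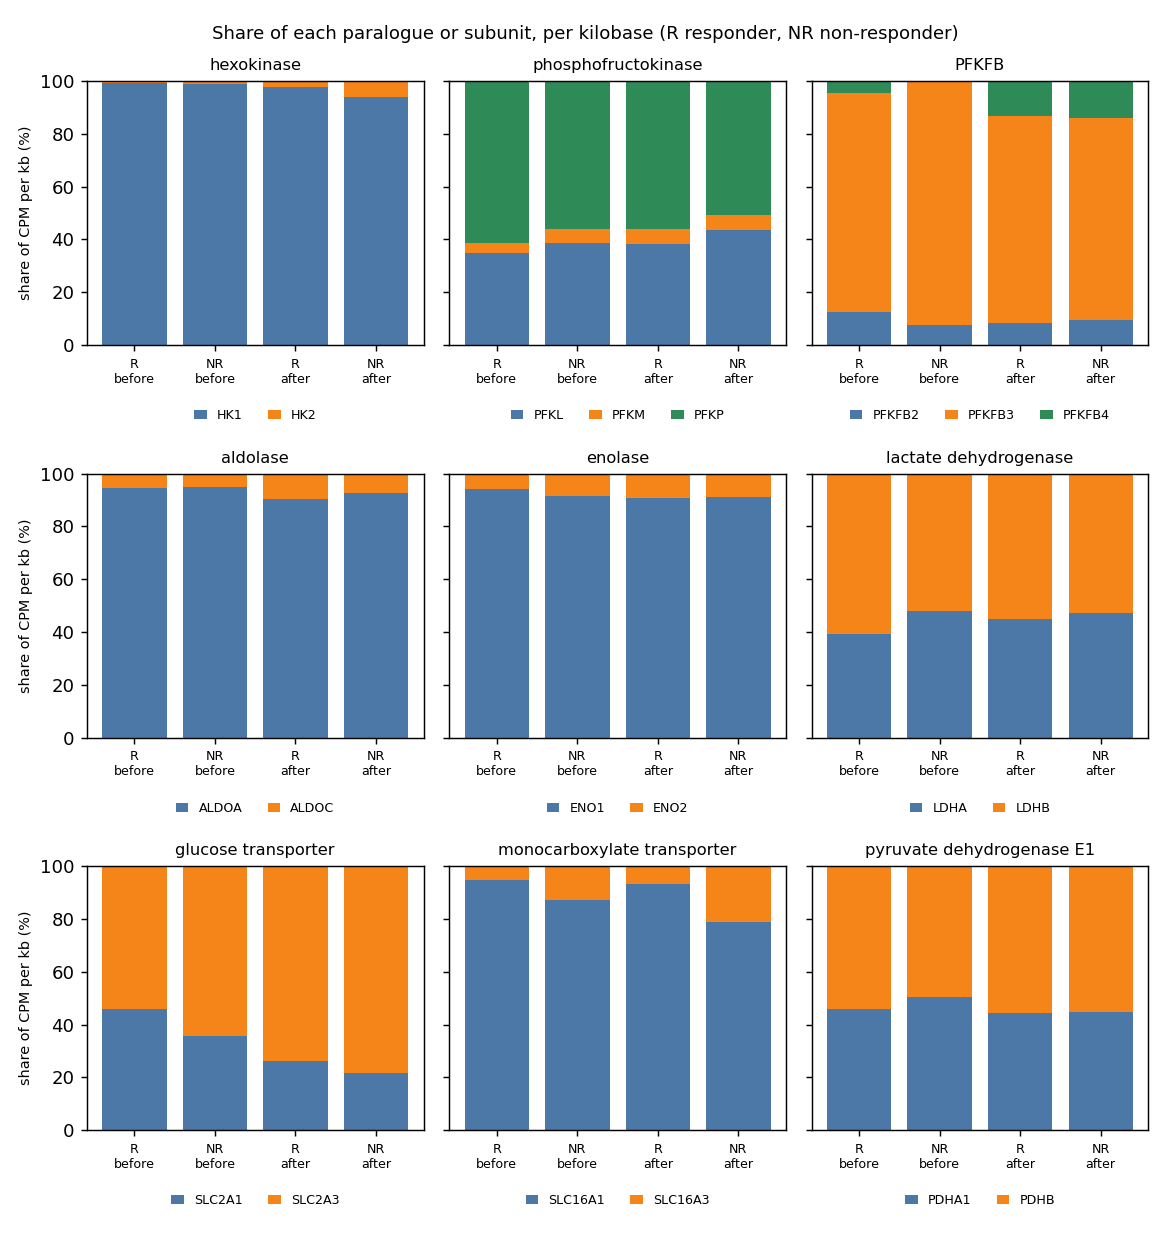
Share of each paralogue or subunit in the summed CPM per kilobase of the members of its family, in percent, for 9 families in the 4 libraries. Bars reach 100%, R is responder and NR non-responder. Only members are included, so HK3 and ENO3 are left out. HK1, ALDOA and ENO1 fill over 90% of the level of their pairs (HK1 with HK2, ALDOA with ALDOC, ENO1 with ENO2) in each library, and SLC2A3 goes from 54.0% in the responder before therapy to 78.2% in the non-responder after therapy.

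Both E1 subunit genes of pyruvate dehydrogenase, which carries pyruvate into the citric acid cycle, had the higher level in each responder library. PDHB (chromosome 3: 58427630 to 58433857), the beta subunit, stood at 113 and 45.4 CPM before and at 118 and 73.8 CPM after therapy. Its log2 ratio was 1.32 (interval 1.26 to 1.38) before and 0.68 after therapy, and DESeq2 called it in the model over all libraries (0.99 ± 0.302, adjusted p = 0.0307), whereas edgeR's quasi-likelihood test did not (1.00 ± 0.246, adjusted p = 0.558). PDHA1, the alpha subunit on the X chromosome, stood at 91.0 and 44.0 CPM before and 90.4 and 57.0 CPM after therapy, with log2 ratios of 1.05 and 0.66. The levels of the subunits per kilobase stayed close to each other, with PDHA1 at 0.844 and 1.02 times PDHB before and 0.802 and 0.811 times PDHB after therapy. PDK1, the kinase that switches the enzyme off, was slightly lower in each responder library, at 28.0 and 33.6 CPM before and 27.6 and 32.6 CPM after therapy. The row RP11-802O23.3, which overlaps PDHB, held 23.9% to 27.4% as many counts as PDHB.

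The PFKFB genes and the pentose phosphate enzymes showed another pattern, with the non-responder library after therapy above the other 3. The monocyte and neutrophil sums, at 222 and 241 CPM before and 2033 and 9627 CPM after therapy, were also highest in that library. So were the sums of the immediate early genes (13491 CPM), dendritic cell markers (178 CPM), platelet markers (212 CPM) and, by little, NK cell markers (483 CPM). The part of each was not tested. PFKFB3, the form with the strongest kinase activity (chromosome 10: 6144934 to 6235545), stood at 9.18 and 13.7 CPM before and 23.1 and 53.7 CPM after therapy, a log2 ratio of -0.57 and then -1.21. PFKFB2 stood at 2.59 and 2.05 CPM before and 4.46 and 12 CPM after therapy, and it overlaps YOD1, which was more abundant in each library. PFKFB4, a form induced by hypoxia, stood at 0.540 CPM before therapy in the responder library and had a count of 0 in its counterpart, where a floor of 3 counts is 0.0460 CPM. After therapy PFKFB4 stood at 4.36 and 10.8 CPM. In the non-responder libraries PFKFB4 was thus 234-fold higher after than before therapy when that floor is taken for the empty library. The 95% counting interval of the log2 ratio had a lower limit of 7.57, which is below the log2 of that fold, so 234-fold is no lower limit.

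The 3 pentose phosphate members had their highest level in the non-responder library after therapy. PGD, which makes NADPH in the oxidative branch (chromosome 1: 10398592 to 10420144), stood at 39.1 and 30.7 CPM before and 45.9 and 116 CPM after therapy. TKT, the transketolase of the branch that returns sugars to glycolysis, stood at 52.3 and 52.0 CPM before and 62.8 and 144 CPM after therapy. TALDO1, the transaldolase of the same branch, stood at 106 and 63.4 CPM before and 101 and 180.0 CPM after therapy. Their log2 ratios of responder to non-responder were 0.35, 0.01 and 0.74 before therapy and -1.34, -1.20 and -0.83 after therapy. The summed level of the 3 genes was 440.4 CPM in the non-responder after therapy against 146 to 209.7 CPM in the other 3 libraries, and the monocyte and neutrophil sum was 9627 CPM in that library against 222 to 2033 CPM. The immediate early, dendritic cell, platelet and NK cell sums were also highest in that library, and the part of each was not tested. Among the monocyte and neutrophil markers in that library, LYZ stood at 3631 CPM and S100A9 at 1722 CPM.

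**Figure D3:**
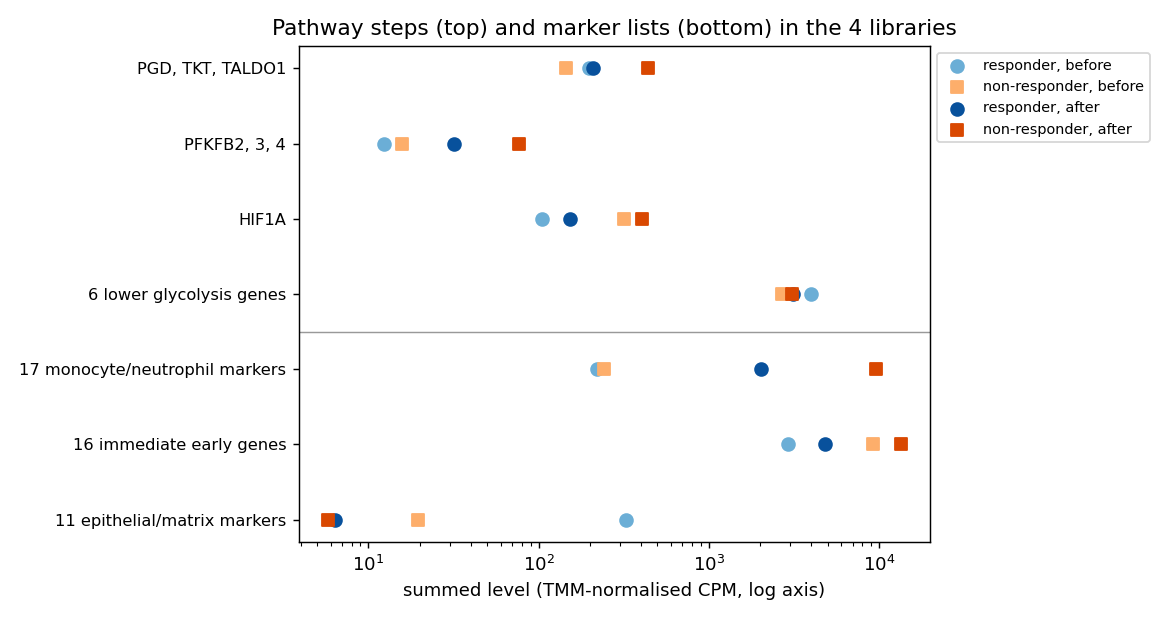
Summed level of 4 groups of members (above the line) and of 3 marker lists (below it) in each library, as TMM-normalised CPM on a log axis. The non-responder library after therapy (dark square) is highest for the pentose phosphate genes, at 440.4 CPM, and the PFKFB genes, at 76.5 CPM. It is also highest for the monocyte and neutrophil markers, at 9627 CPM, and for the immediate early genes, at 13491 CPM. The responder library before therapy (pale circle) is highest for lower glycolysis, at 3981 CPM, and for epithelial markers, at 328 CPM.

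Counted over the 27 members with at least 5 CPM in either library before therapy, 22 were higher and 5 lower in the responder. Of these, PFKP, PDHA1 and PDHB were 2-fold higher or more and SLC2A3 and HIF1A at least 2-fold lower, which makes 5 of 27, where 20.4% of all 12361 genes at that level were 2-fold apart (11.5% higher and 8.93% lower). The share of members is near that background. Their median log2 ratio was 0.49, against 0.06 over all genes at that level. HK2, PFKFB2, PFKFB4 and SLC16A3 were under that level.

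After therapy all 31 members reached that level, with 15 higher and 16 lower in the responder, where 55.1% of all genes were higher. The median of the members was 0.00, against 0.07 over all genes. A 2-fold difference was found for 7, where 14.6% of genes had one. None was at least 2-fold higher, where the background was 5.79%, and 7 were at least 2-fold lower, where it was 8.85%. These 7 were PFKFB2, PFKFB3, PFKFB4, SLC16A3, PGD, TKT and HIF1A. Of the 7, HIF1A was also 2-fold lower before therapy. With at least 20 CPM in either library the count after therapy was 4, since PFKFB2, PFKFB4 and SLC16A3 lay under that level. No share of all genes is given at 20 CPM, so that count has no background.

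**Figure D4:**
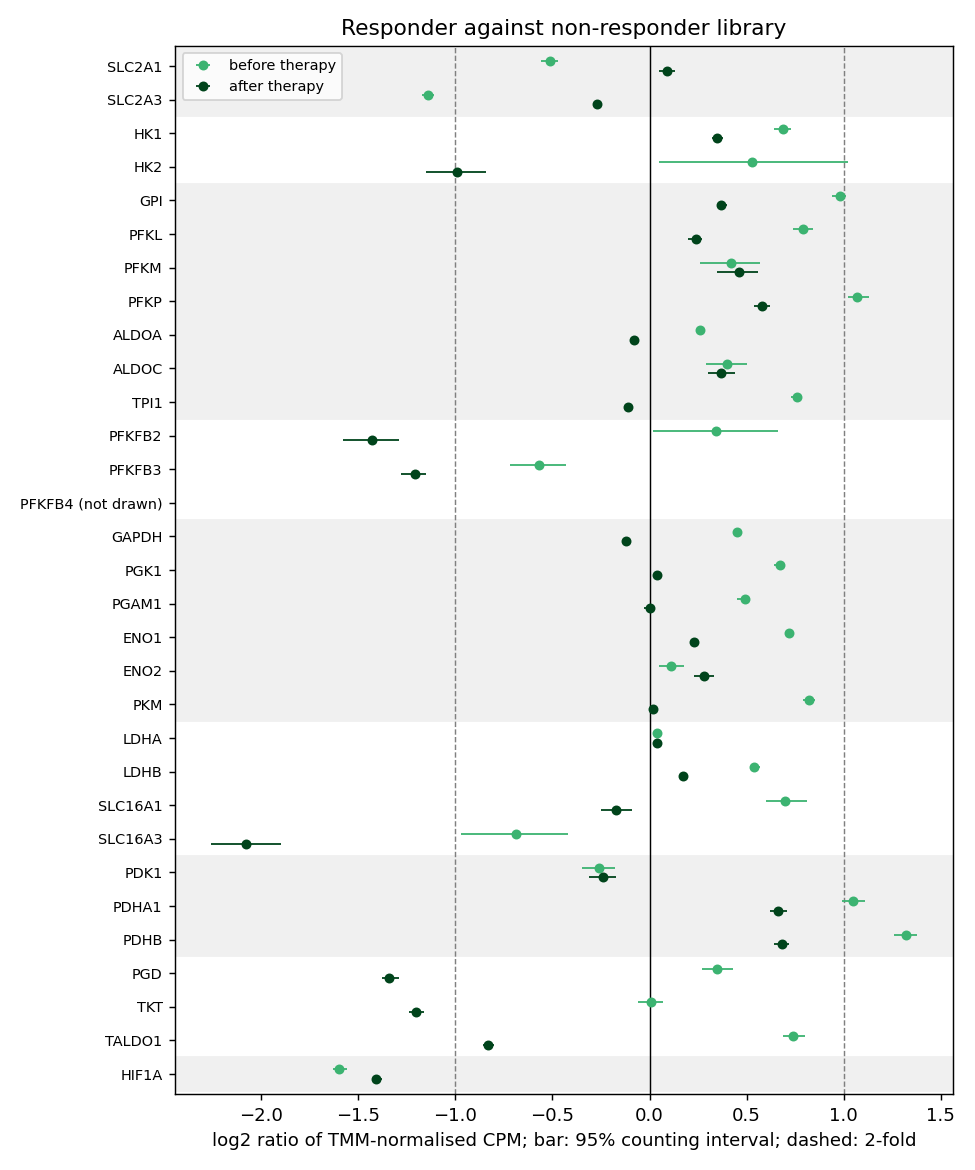
Log2 ratio of the responder to the non-responder library for each gene, before (pale) and after therapy (dark), with 95% counting intervals that do not include differences between people. Dashed lines mark 2-fold. The enzymes of upper and lower glycolysis lie right of 0 before therapy and most lie nearer to it afterwards, HIF1A lies near -1.5 at both times, and the PFKFB and pentose phosphate genes lie left of -0.8 after therapy. PFKFB4 is not drawn because a library had no count.

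Over both times, 9 members had both responder libraries above both non-responder libraries, where 22.2% of all 13233 genes with at least 5 CPM in any library did. These were GPI, PFKL, PFKM, PFKP, ENO1, PKM, LDHB, PDHA1 and PDHB. Both responder libraries lay below both non-responder libraries for 4 members, HIF1A, PDK1, SLC2A3 and SLC16A3, where the background was 16.2%. Without the non-responder library after therapy, in which monocyte markers were highest, 19 of 27 members lay above and 4 below, with a background of 43.1% and 33.3%. Without the responder library before therapy, in which epithelial markers were highest, 14 of 31 lay above and 7 below, with a background of 39.6% and 28.4%. Without the responder library after therapy the numbers were 13 and 5 of 31, with a background of 33.5% and 30.0%, and without the non-responder library before therapy they were 10 and 12, with a background of 37.0% and 32.4%. With 1 library left on a side, separation is an easier condition, as its background shows.

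The model of response and time over the 4 libraries had 1 residual degree of freedom and treated the differing response at each time as error. For response, edgeR's quasi-likelihood test called 0 of the 31 members and 0% of 24113 genes, while 6 members were under an unadjusted p of 0.05, where 8.79% of genes were. These 6 were HIF1A, PDHB, PDHA1, PFKP, GPI and PFKFB3. DESeq2 on the same design called 2 members, where it called 4.76% of genes (2.24% higher and 2.52% lower), namely HIF1A lower (-1.52 ± 0.246, DESeq2 adjusted p = 3.6e-07) and PDHB higher. limma-voom called 0, with a lowest adjusted p among members of 0.319. For time, edgeR again called 0 members, with 2 under an unadjusted p of 0.05, HK2 and PFKFB3, where 0% of genes were called and 11.3% were under the unadjusted threshold. limma-voom called 0 members and 0.00829% of genes. DESeq2 called 3 members, HK2, PFKFB3 and PFKFB4, all higher after therapy, where it called 7.41% of genes (5.26% higher and 2.15% lower). PFKFB3 was at 1.66 ± 0.374 in that fit (DESeq2 adjusted p = 0.000511).

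Within the responder libraries, 1 of 27 members at 5 CPM was at least 2-fold apart between the times, where 13.2% of genes were (8.50% higher and 4.69% lower). That was PFKFB3, with a log2 ratio of after to before of 1.33 (interval 1.22 to 1.45). SLC2A3 came next among members at that level, at 0.97. TPI1, GAPDH and ALDOA were lower after therapy, with log2 ratios of -0.81, -0.61 and -0.54. The median of the members was -0.01.

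Within the non-responder libraries, 8 of 31 members were at least 2-fold higher after therapy and none 2-fold lower, where 23.9% of genes were apart, 15.6% higher and 8.25% lower. The 8 were HK2, PFKFB2, PFKFB3, PFKFB4, SLC16A3, PGD, TKT and TALDO1. PGD had a log2 ratio of 1.92 (interval 1.85 to 1.99), PFKFB2 of 2.55 and HK2 of 3.32. SLC2A1 was lower after therapy, at -0.90, while HIF1A was at 0.37. The median of the members was 0.51, against 0.07 over all genes. The monocyte and neutrophil sum went from 241 to 9627 CPM between these libraries, with 16 of 17 markers at least 2-fold higher. The immediate early sum went from 9263 to 13491 CPM, the dendritic cell sum from 21.6 to 178 CPM and the platelet sum from 100 to 212 CPM. The comparisons of response and of time share libraries and are no separate evidence.

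**Figure D5:**
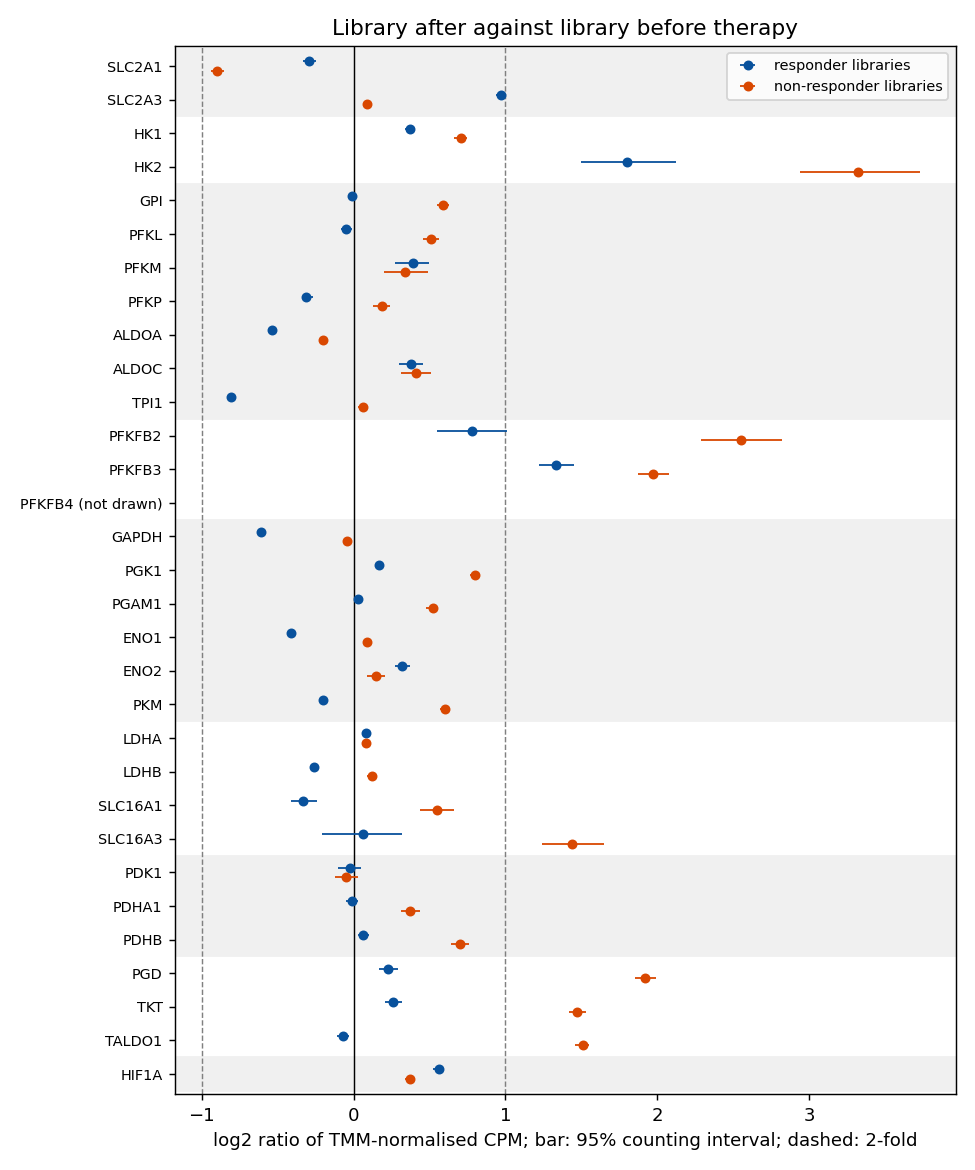
Log2 ratio of the library after to the library before therapy for each gene, in responder (blue) and non-responder libraries (orange), with 95% counting intervals. Dashed lines mark 2-fold. In the non-responder libraries HK2, PFKFB2, PFKFB3, SLC16A3 and the 3 pentose phosphate genes lie right of 1, while among the responder libraries HK2 and PFKFB3 do. HK2 was under 5 CPM in both responder libraries, and PFKFB4 is not drawn because a library had no count.

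Other genes of the same pathways were taken from 8 lists with 122 genes. Their counts can be read against all genes at 5 CPM, of which 53.4% were higher in the responder before and 55.1% after therapy, 11.5% and 5.79% were 2-fold higher, and 8.93% and 8.85% were 2-fold lower. Of the other pentose phosphate genes, 10 of 11 reached 5 CPM before therapy, and the responder exceeded the non-responder by 2-fold or more for TKTL1 and PRPS2, with none 2-fold lower. TKTL1, a transketolase-like gene on the X chromosome, stood at 58.5 and 4.78 CPM before and 13.7 and 10.2 CPM after therapy. PRPS2, which makes the ribose phosphate donor for nucleotides, stood at 24.8 and 9.98 CPM before and 36.1 and 28.5 CPM after therapy. H6PD, an enzyme of the endoplasmic reticulum, stood at 19.4 CPM in both earlier libraries and at 35.6 and 17.3 CPM after therapy.

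Of 20 other glycolytic enzymes, 8 reached 5 CPM before and 9 after therapy. None was 2-fold apart before therapy, and after therapy BPGM and GALM were 2-fold higher and HK3 2-fold lower in the responder. HK3, the hexokinase of myeloid cells, stood at 2.79 and 0 CPM before and 17.3 and 86.1 CPM after therapy. Per kilobase, HK3 stood at 26.2 and HK1 at 23.1 CPM per kb in the non-responder library after therapy, and at 5.26 and 29.5 in the responder library after therapy. BPGM, which makes 2,3-bisphosphoglycerate, stood at 53.6 and 74.0 CPM before and 92.2 and 30.0 CPM after therapy. ENO3, the muscle enolase, was counted at 303 to 716 CPM but overlaps PFN1, the abundant profilin gene, and its counts were 27.0% to 29.0% of those of PFN1 in each library.

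Among 18 other sugar, lactate and pyruvate transporters, 11 reached 5 CPM at each time. Before therapy SLC2A11 and SLC37A4 were 2-fold higher and SLC2A14 was 2-fold lower in the responder, and after therapy SLC37A4 was 2-fold higher and SLC2A6 2-fold lower. SLC37A4, the glucose 6-phosphate transporter of the endoplasmic reticulum, stood at 21.1 and 4.16 CPM before and 24.5 and 10.9 CPM after therapy. EMB, a partner protein of the lactate transporters, stood at 152 and 154 CPM before and 312 and 255 CPM after therapy.

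Of 9 other genes of pyruvate dehydrogenase and its control, none of the 7 at 5 CPM was 2-fold apart before therapy, and PDK4 alone was after therapy. PDK4, a kinase that inhibits the enzyme and is induced by fasting and fatty acids, stood at 1.56 and 0 CPM before and 3.16 and 28.8 CPM after therapy. DLAT, the E2 subunit, stood at 29.3 and 19.7 CPM before and 53.6 and 30.1 CPM after therapy. The 19 citric acid cycle genes all reached 5 CPM, and 16 had the higher level in the responder of the earlier pair (median log2 ratio 0.47, against 0.06 over all genes) and 14 in that of the later pair (median 0.30, against 0.07). IDH3A and IDH1, both isocitrate dehydrogenases, and SDHC, of succinate dehydrogenase, were 2-fold higher in the responder of the earlier pair, with IDH3A at 47.5 and 13.8 CPM.

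Of 16 genes that control HIF or sense glucose, 12 reached 5 CPM before therapy, and ARNT and EGLN2 were 2-fold or more above the non-responder level, while ARRDC4 was 2-fold lower after therapy. ARNT, the partner with which HIF1A binds DNA, stood at 48.6 and 5.80 CPM before therapy, opposite in direction to HIF1A, and at 46.3 and 36.1 CPM after therapy. EGLN2, a hydroxylase that marks HIF proteins for decay, stood at 84.2 and 38.1 CPM before and 84.9 and 66.2 CPM after therapy. TXNIP, an inhibitor of glucose uptake that responds to glucose itself, stood at 3745 and 2005 CPM before and 7259 and 7849 CPM after therapy, so it was higher in both libraries from after therapy. ARRDC4, a related gene, stood at 0.312 and 0 CPM before and at 5.03 and 17.3 CPM after therapy. Of 15 HIF targets outside glycolysis, 12 reached 5 CPM before therapy, with DDIT4, MXI1 and BHLHE40 at least 2-fold lower and P4HA2 2-fold higher in the responder. After therapy 13 reached it, with VEGFA, ADM and PLIN2 at least 2-fold lower and none 2-fold higher. DDIT4, an inhibitor of the kinase mTOR that is also induced by stress and glucocorticoids, stood at 66.7 and 293 CPM before and 233 and 425 CPM after therapy. VEGFA, the vascular growth factor, stood at 1.55 and 3.11 CPM before and 1.96 and 26.3 CPM after therapy. ADM, the vasodilator peptide adrenomedullin, stood at 1.30 and 1.81 CPM before and 3.39 and 32.2 CPM after therapy. PLIN2, a lipid droplet coat protein, stood at 128 and 170.4 CPM before and 99.5 and 309 CPM after therapy.

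Genes of gluconeogenesis and glycogen gave 3 genes 2-fold higher in the responder before therapy, PCK2, GYS1 and PYGL, among 9 at 5 CPM. GYS1, the glycogen synthase of muscle and other tissues, stood at 45.9 and 21.5 CPM before and 48.0 and 29.5 CPM after therapy. After therapy FBP1 and PYGL were 2-fold lower in the responder among 10. FBP1, a gluconeogenic enzyme also abundant in monocytes, stood at 7.30 and 6.56 CPM before and 7.61 and 27.8 CPM after therapy, and PYGL, the liver glycogen phosphorylase, stood at 5.24 and 0.460 CPM and then at 14.7 and 46.8 CPM. The highest level of HK3, PDK4, VEGFA, ADM, PLIN2, FBP1 and PYGL was in the library with the highest monocyte and neutrophil sum. That library was also highest for the immediate early, dendritic cell, platelet and NK cell sums, and the part of each was not tested.

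Several members have copies in the genome. The rows named as pseudogenes of a member held at most 4.71% of its count, for TPI1, then 3.06% for LDHA and 2.40% for ENO1, and 58 rows named for GAPDH together held at most 0.777%. The row RP5-940J5.9, which overlaps GAPDH, held 40.7% to 43.0% as many counts as GAPDH.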

How the data were processed

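CD11a-high CD8+ T cells were isolated by flow cytometry, and cDNA was made from 1 ng of RNA with a SMARTer kit and read as pairs of 101 bases, per the labels' protocols. The submitters' processing notes name bcl2fastq 1.8.4, TopHat2 and the build hg38. The counting tool and strand setting: not given in the sources used here. The authors deposited raw counts per gene, 1 file per library, per the file headers.

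Rows on other contigs (4146) and 617 sex-informative genes were dropped, which left 59490, and library totals kept all counts. CPM and log2 ratios used TMM factors (edgeR 4.0.16, R 4.3.3) and a prior of 0.5 counts, their 95% intervals come from the exact binomial split of the 2 counts, and 2-fold differences were counted among genes reaching 5 CPM in 1 of the libraries compared. edgeR's glmQLFTest was run after filterByExpr with outcome and time as terms, 2-sided, with Benjamini-Hochberg adjustment over all genes and a threshold of 0.05. The common biological coefficient of variation was 0.66. Each edgeR SE is the absolute coefficient over the square root of F, and each DESeq2 SE is the one DESeq2 reports. Alternatives were DESeq2 1.42.0 and limma-voom (limma 3.58.1). The edgeR fit was also run on simulated counts, but no outcome is given here, so that run does not bear on the results. Reads without molecular identifiers are not independent molecules, so intervals and floors cover counting error only. Nothing says that libraries are biological replicates, so a p-value reflects the spread among 4 libraries, which may be technical.

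The members and lists were chosen with earlier results of these data known. All 31 members are named, and from each of the 8 lists up to 6 genes by their largest ratio, given 5 CPM and 50 reads in the higher library. MXI1, LYZ, S100A9, EPCAM, FOS and rows that overlap a member fall outside this rule and were picked with their values known.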

Additional observations from a re-analysis of the deposited data

Results flagged for a closer look

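TALDO1, the transaldolase gene, changed sides between the times. Its responder level exceeded the non-responder level by over 1.5-fold before therapy and lay below it by over 1.5-fold after therapy. The log2 ratio was 0.74 before and -0.83 after therapy, a difference of -1.58, which was not tested because each group holds 1 library. The monocyte and neutrophil sums were 222 and 241 CPM in the earlier pair and 2033 and 9627 CPM in the later pair. Immediate early, dendritic cell, platelet and NK cell sums were also highest in the non-responder library after therapy. The part of each was not tested.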

How the results depend on the processing

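No paired analysis was possible because the labels do not say which libraries share a patient, and each group holds 1 library. Scaling by library size alone gave member medians of 0.57 for response before therapy and -0.11 for time in responders. Without a minimum level, 3 members were 2-fold apart over time in responders, with a median of 0.06. With a minimum of 20 CPM, which leaves fewer genes, the median before therapy was 0.54, 4 members were 2-fold apart after therapy, and 4 were over time in non-responders, with a median of 0.39. No share of all genes is given at 20 CPM or without a minimum level, so these counts cannot be read against a background. At 1.5-fold, 14 of 27 members were apart before therapy (42.5% of all genes), 11 of 31 after therapy (32.9%), 4 of 27 over time in responders (34.5%) and 14 of 31 over time in non-responders (46.2%). DESeq2 called 2 members for response and 3 for time. Leaving out each library in turn gave 10 to 19 members with responders above and 4 to 12 below, an alternative chosen after seeing the data. The edgeR fits with a library left out compare 1 library with 2 and called 0 members, as the fit on all 4 did, which says nothing about stability. A prior count of 5 took the log2 ratio of PFKFB4 over time in non-responders, where 1 library has no count, from 11.03 to 7.71. With 1 library per group, differences between people cannot be told apart from differences between groups, whatever the depth.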
